A study of Caenorhabditis elegans with 30 samples.

Results

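The lipid-binding protein family of Caenorhabditis elegans, lbp-1 to lbp-9, comprises the 9 genes that the deposited tables name lbp. They were taken by symbol from 28387 probe sets, of which 25908 genes remained with 1 probe set each, and every lbp gene had a single probe set. The family belongs to the fatty acid-binding proteins, small barrel-shaped proteins that hold a fatty acid or a similar lipid inside the barrel and carry it through a watery space. LBP-1, LBP-2 and LBP-3 carry a secretion signal and belong to a group of secreted family members found in nematodes, while the others are taken to act inside cells. LBP-5 and LBP-8 are known to bring lipid signals to nuclear receptors such as NHR-49, and LBP-8 and LBP-3 have both been placed downstream of the lysosomal lipase LIPL-4.

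Total RNA of whole worms was hybridised to 30 Affymetrix arrays, 3 in each of 10 groups. The atf-6, ire-1 and pek-1 groups were labelled as knockouts, each of them lacking 1 of the 3 proteins that sense unfolded protein or membrane stress in the endoplasmic reticulum, and each was fed bacteria with RNAi against pmt-2 or with the empty vector pL4440. A pmt-2 knockout on the vector formed 1 group. Wild-type N2 worms received pmt-2 RNAi, tunicamycin, or the empty vector. The enzyme encoded by pmt-2 methylates phosphoethanolamine on the way to the membrane lipid phosphatidylcholine, and tunicamycin blocks N-glycosylation and thereby loads the endoplasmic reticulum with unfolded protein. By the labels, all groups grew from the first larval stage to young adulthood on medium with 25 µg/mL carbenicillin and 1 mM IPTG. The labels name no allele. That the pmt-2 mutant was at the same stage as wild type rests on the labels alone. Its adult-stage and germ line markers, given below, lay far under those of wild type. Harvested adults were kept for 4 hours in M9 buffer with 25 µg/mL tunicamycin, and since the labels describe this buffer for tunicamycin alone, the drug and the buffer cannot be told apart. For wild type, the source field of the RNAi arrays names tunicamycin and that of the tunicamycin arrays names RNAi, and the titles were followed.

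The values are log2 signals after RMA (robust multi-array average), so a difference of 1 is a doubling, and a level says nothing about how one gene compares with another. Changes are differences of group means with their standard error (SE) and limma's p-value, adjusted over all 28387 probe sets and called under 0.05. Within a group, pairs of arrays correlated at 0.98 or higher, and array medians lay between 3.74 and 3.89. Wild type on RNAi was the most uneven group. Its lowest correlation was 0.98 against 0.9879 or higher in the other groups, its median SD of 0.194 was the largest, and its array medians ran from 3.77 to 3.89. pmt-2 averaged 6.63 ± 0.17 in wild-type worms on RNAi, 8.70 ± 0.16 with tunicamycin and 10.14 ± 0.07 on vector (SD, n = 3 each), and 4.70 ± 0.18 in the pmt-2 mutant. Its change under RNAi was -3.51 in wild type, -3.37 in the atf-6 mutant, -2.90 in the pek-1 mutant and -2.18 in the ire-1 mutant. ire-1 was lower by 2.47 in its mutant on vector than in wild type (adjusted p = 7.5e-15), pek-1 averaged 6.74 ± 0.13 in its mutant on vector against 7.59 ± 0.16 in wild type on vector, and atf-6 averaged 7.28 ± 0.24 against 7.51 ± 0.12, a difference that missed the threshold (adjusted p = 0.467). Which part of each gene the knockouts lack is not stated in the labels, so the atf-6 signal does not check its label. On RNAi, atf-6 averaged 8.54 ± 0.07 in the atf-6 mutant, above the 8.20 ± 0.07 of wild type (SD, n = 3 each), so it was not lower in the arrays labelled as its knockout, and the name atf-6 mutant rests on the labels alone. ire-1 and pek-1 were lower in their own mutants on RNAi too, at 6.02 ± 0.10 against 8.78 ± 0.07 and 7.70 ± 0.14 against 8.72 ± 0.09 in wild type on RNAi. Nothing in the labels says that a group's 3 arrays were separate cultures, so p-values measure the spread between arrays, which may be technical.

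The 9 genes lie in 3 neighbourhoods and at 2 single sites, in the files' coordinates, of a build not given in the sources used here. On chromosome X, the 3 secreted members stand in a row on the plus strand. lbp-3 (F40F4.4) runs from 3256998 to 3258146, lbp-1 (F40F4.3) from 3259090 to 3259843 and lbp-2 (F40F4.2) from 3260598 to 3261461. Their gaps are 943 and 754 bases, with 0 other protein-coding genes between them. On chromosome I, lbp-6 (W02D3.5, 6728286 to 6729379) and lbp-5 (W02D3.7, 6731270 to 6732281) share the minus strand with 1 protein-coding gene between them. On chromosome V, lbp-7 (T22G5.2, 13879536 to 13880200) and lbp-8 (T22G5.6, 13890686 to 13891348) share the plus strand with 3 protein-coding genes between them. lbp-4 (ZK742.5, 7820557 to 7821457) and lbp-9 (Y40B10A.1, 2068448 to 2069142) stand alone on the plus strand of chromosome V.

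The family did not move as one. Over the 10 groups the group means of lbp-3 spanned 2.66, those of lbp-7 2.27, lbp-4 1.83 and lbp-1 1.69, whereas lbp-5 spanned 0.54. The median span was 1.25 over the 9 genes and 0.91 over all probe sets. In the pmt-2 mutant 2 lbp genes rose and 4 fell against wild type on vector, where 59.2% of all probe sets were called, 28.4% higher and 30.8% lower. In wild type on pmt-2 RNAi 3 rose and 2 fell, where 33.3% of all probe sets were called, 15.6% higher and 17.7% lower. With tunicamycin 1 rose and 3 fell, where 16.6% of all probe sets were called, 8.24% higher and 8.37% lower. The 6 of 9 in the pmt-2 mutant lie near that background. The median change of the 9 genes was -0.34 in the pmt-2 mutant, -0.02 with RNAi and -0.08 with tunicamycin, against -0.13, -0.09 and 0.02 over all probe sets. These comparisons share the 3 vector arrays of wild type.

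**Figure D1:**
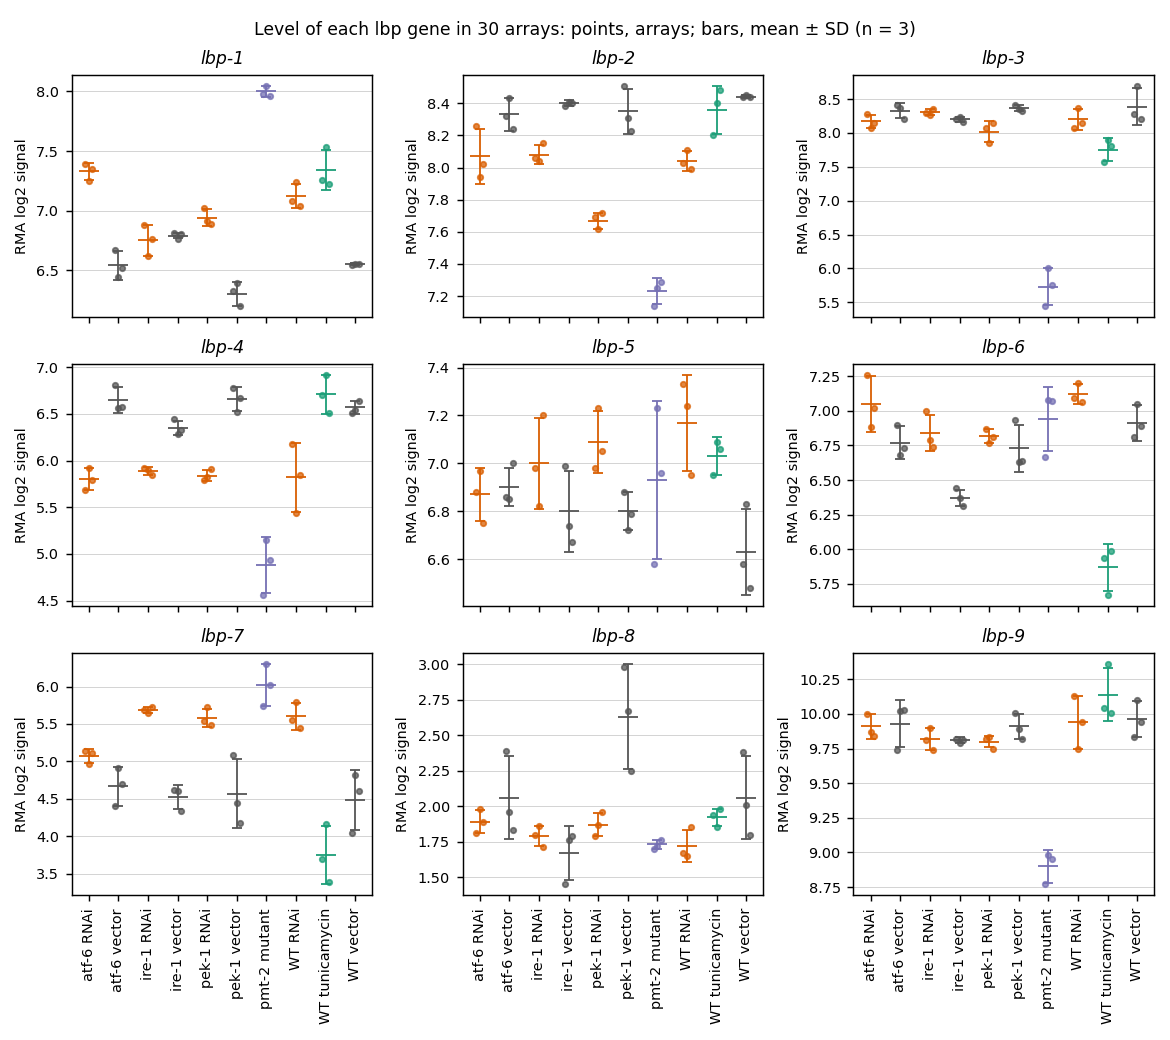
Levels of the 9 lbp genes (vertical axes, RMA log2 signal, each panel with its own scale) in the 10 groups, with 1 point per array and bars for the mean ± SD of 3 arrays. In the pmt-2 mutant lbp-1 (8.0) and lbp-7 (6.02) have their highest group mean and lbp-2, lbp-3, lbp-4 and lbp-9 their lowest, while lbp-6 and lbp-7 are lowest with tunicamycin.

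lbp-1, which encodes a secreted member, was higher in all 3 treated or mutant conditions set against wild type on vector. Its arrays read 7.98, 8.05 and 7.96 in the pmt-2 mutant, 7.08, 7.24 and 7.04 in wild type on RNAi, and 7.26, 7.53 and 7.22 with tunicamycin, against 6.54, 6.55 and 6.55 in wild type on vector. The ranges of the 3 conditions all lie above that of the vector. The rise was 1.45 in the pmt-2 mutant (SE 0.095, 2.73-fold, limma adjusted p = 7.01e-13), 0.57 with RNAi (1.48-fold, adjusted p = 4.18e-05) and 0.79 with tunicamycin (1.73-fold, adjusted p = 6.85e-07). The pmt-2 mutant stood 0.88 above wild type on RNAi (adjusted p = 1.42e-08), whereas the difference of 0.22 between tunicamycin and RNAi missed the threshold (95% interval 0.02 to 0.42, adjusted p = 0.0678).

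The rise of lbp-1 under pmt-2 RNAi was called in 3 of 4 genotypes and not in the ire-1 mutant. In the atf-6 mutant lbp-1 read 7.39, 7.25 and 7.35 on RNAi against 6.67, 6.44 and 6.52 on vector, a rise of 0.79 (adjusted p = 5.71e-07). In the pek-1 mutant it read 7.02, 6.91 and 6.89 on RNAi against 6.32, 6.39 and 6.20 on vector, a rise of 0.64 (adjusted p = 5.37e-06). In the ire-1 mutant it read 6.88, 6.62 and 6.76 on RNAi against 6.81, 6.76 and 6.80 on vector, so the arrays of the 2 groups overlap. The difference there was -0.04 (95% interval -0.24 to 0.16, adjusted p = 0.809).

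The response in the ire-1 mutant minus that in wild type was -0.61 (SE 0.135, 95% interval -0.89 to -0.33, limma adjusted p = 0.00526). lbp-1 was the 1 of 9 lbp genes called in this difference of responses, where 6.25% of all probe sets were called. Set against the other sensor mutants, a comparison added after the data were seen, the response in the ire-1 mutant was lower by 0.83 than in the atf-6 mutant (adjusted p = 0.000258) and by 0.68 than in the pek-1 mutant (adjusted p = 0.00155), where 5.68% and 8.98% of all probe sets were called. The fall of pmt-2 itself was 1.33 smaller in the ire-1 mutant than in wild type (SE 0.161, adjusted p = 3.55e-06). On vector pmt-2 already differed there from wild type, by -0.495 (limma adjusted p = 0.00772). In the pek-1 mutant its fall was 0.606 smaller than in wild type, which missed the threshold (limma adjusted p = 0.0613). On vector, 6.16% of all probe sets were called between the ire-1 mutant and wild type, and markers differed too. Hypodermal markers lay at 7.10 to 7.41 against 5.81 to 6.51 in wild type (5 of 10 higher, 0 lower). Neuronal ones lay at 7.16 to 7.22 against 6.88 to 7.04 (2 of 10 higher, 0 lower). Of the others, 2 of 11 intestinal and 1 of 12 germ line markers were lower, and 1 of 10 muscle markers was higher. The part of these pmt-2 and marker differences in the lbp-1 result was not tested. On vector, lbp-1 averaged 6.79 ± 0.02 in the ire-1 mutant and 6.55 ± 0.01 in wild type (SD, n = 3 each), a difference of 0.24 that missed the threshold (limma adjusted p = 0.144) with ranges that do not overlap. The authors' deposited table gives it an FDR p-value of 0.0328, under the threshold.

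**Figure D2:**
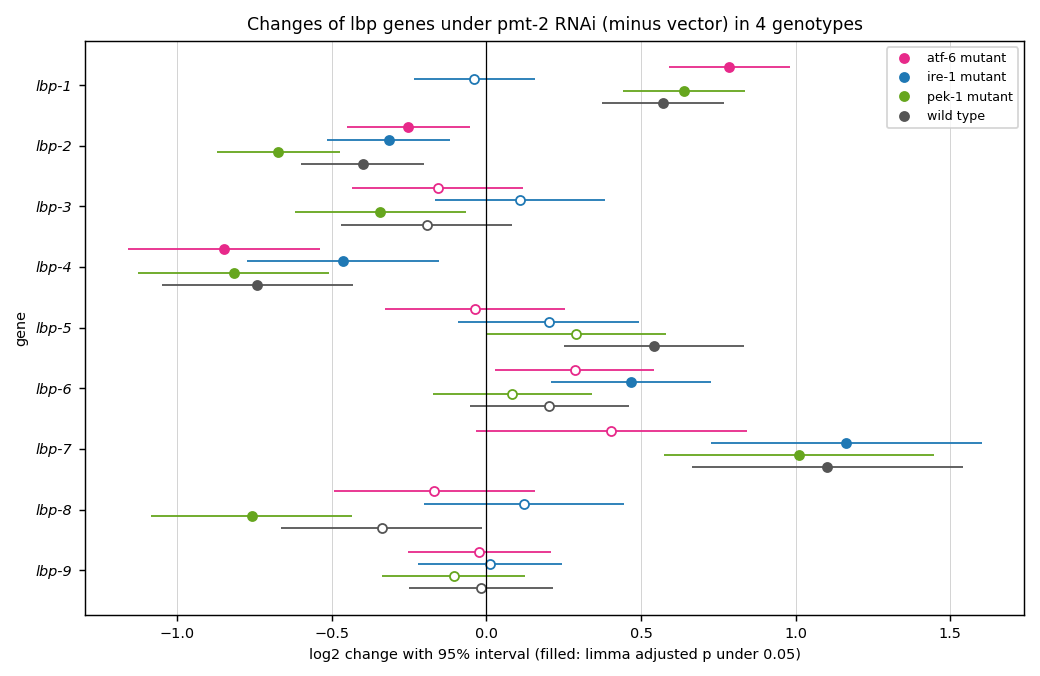
Change of each lbp gene under pmt-2 RNAi (horizontal axis, log2 RNAi minus vector, bars for the 95% interval) in the atf-6, ire-1 and pek-1 mutants and in wild type, filled where limma's adjusted p is under 0.05. lbp-1 lies at 0.79, -0.04, 0.64 and 0.57 in that order, while lbp-2 and lbp-4 lie below 0 in all 4 genotypes.

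In the order of its 10 group levels, lbp-1 was highest in the pmt-2 mutant and lowest in the pek-1 mutant on vector (6.30 ± 0.10). Neighbours whose arrays overlap were tunicamycin with the atf-6 mutant on RNAi, the ire-1 mutant on vector with the same mutant on RNAi, and wild type with the atf-6 mutant, both on vector. Over the 10 group means, the genes most like it were C48D1.1 (Pearson r = 0.971), F13E9.11 (0.968) and hil-1 (0.967), among 5043 genes searched, and without the pmt-2 mutant these were 0.938, 0.931 and 0.93 over 9 groups.

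lbp-2, the neighbour of lbp-1 and likewise a secreted member, went the other way. It read 7.14, 7.25 and 7.29 in the pmt-2 mutant and 8.03, 8.11 and 7.99 in wild type on RNAi, against 8.44, 8.45 and 8.44 in wild type on vector. Both conditions lie below the vector without overlap. It fell by 1.22 in the pmt-2 mutant (SE 0.096, adjusted p = 2.59e-11) and by 0.40 with RNAi (adjusted p = 0.00194), and the mutant differed from RNAi by -0.82 (adjusted p = 6.03e-08). With the spread taken from the 6 arrays of the RNAi comparison alone, the adjusted p of the RNAi change was 0.0519. With tunicamycin it read 8.20, 8.40 and 8.48, a range that holds the vector arrays, and the change was -0.08 (95% interval -0.28 to 0.12, adjusted p = 0.667).

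Under RNAi lbp-2 was called lower in all 4 genotypes. In the pek-1 mutant it read 7.69, 7.62 and 7.72 on RNAi against 8.51, 8.31 and 8.23 on vector, a fall of 0.67 (adjusted p = 2.89e-06). In the ire-1 mutant it read 8.06, 8.04 and 8.15 on RNAi against 8.38, 8.41 and 8.40 on vector, a fall of 0.32 (adjusted p = 0.0159) whose adjusted p was 0.0544 and 0.0546 without RNAi array 1 or 2 of that mutant. In the atf-6 mutant the arrays overlap at 8.26, 7.94 and 8.02 on RNAi against 8.32, 8.43 and 8.24 on vector. The fall there was 0.25 (adjusted p = 0.0495) and remained called in 6 of 13 alternatives, with an adjusted p between 0.0931 and 0.211 without vector array 1 or 2 or RNAi array 2 or 3. No difference of responses between a sensor mutant and wild type was called for lbp-2 by limma, and the lowest unadjusted p was 0.0558, for the pek-1 mutant.

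lbp-2 was highest in wild type on vector and lowest in the pmt-2 mutant, and by their means the 4 vector groups and tunicamycin stood above the 4 RNAi groups and the pmt-2 mutant. The vector groups of the ire-1, pek-1 and atf-6 mutants and the tunicamycin group overlap from one to the next, as do the RNAi groups of the ire-1 mutant, the atf-6 mutant and wild type. The genes most like it over the group means were cpf-1 (r = 0.989), mtrf-1L (0.988) and C27F2.10 (0.988), and 0.969, 0.978 and 0.973 without the pmt-2 mutant.

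lbp-3, the first gene of the row on chromosome X and known as a secreted carrier of signals from fat-storing tissue to neurons, had the deepest fall of the 9 genes over these comparisons. Its arrays read 5.45, 6.0 and 5.75 in the pmt-2 mutant and 7.57, 7.89 and 7.81 with tunicamycin, against 8.28, 8.70 and 8.20 in wild type on vector. Neither condition overlaps the vector. The fall was 2.66 in the pmt-2 mutant (SE 0.134, 6.31-fold lower, limma adjusted p = 3.76e-15) and 0.64 with tunicamycin (1.56-fold lower, adjusted p = 0.00099). With the spread of the tunicamycin and vector arrays alone, the tunicamycin change had an adjusted p of 0.0563.

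Wild type on RNAi read 8.07, 8.37 and 8.15 for lbp-3, which overlaps the vector, with a change of -0.19 (95% interval -0.47 to 0.08, adjusted p = 0.29). The pmt-2 mutant differed from RNAi by -2.46 (adjusted p = 3.78e-14). In the pek-1 mutant lbp-3 read 8.08, 7.85 and 8.15 on RNAi against 8.42, 8.36 and 8.32 on vector. That fall of 0.34 (adjusted p = 0.0401) was called in 5 of 13 alternatives, and leaving out any of the 3 vector arrays, or RNAi array 1 or 2, gave an adjusted p between 0.0579 and 0.175. In the atf-6 and ire-1 mutants the changes of -0.16 and 0.11 missed the threshold (adjusted p = 0.416 and 0.6). In the order of levels, wild type, the pek-1 mutant and the atf-6 mutant on vector overlap with the ire-1 mutant on RNAi at the top, the other groups overlap from one to the next down to tunicamycin, and the pmt-2 mutant stands apart at the bottom.

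The genes whose group means were most like those of lbp-3 were the collagen genes col-122 (r = 0.995), col-19 (0.993) and col-140 (0.993), among 5042 genes searched. col-19 encodes a collagen of the adult cuticle and is used as a marker of the adult stage. It read 3.82, 4.06 and 3.83 in the pmt-2 mutant and 10.02, 10.37 and 10.24 with tunicamycin, against 11.13, 11.29 and 11.32 in wild type on vector. In wild type on RNAi it read 10.17, 10.89 and 10.71, wholly below the vector, which lbp-3 overlapped there. In the ire-1 mutant col-19 read 10.92, 10.83 and 10.98 on RNAi against 11.08, 11.21 and 11.07 on vector. There lbp-3 was higher on RNAi, at 8.30, 8.27 and 8.36 against 8.21, 8.23 and 8.16. In the atf-6 and pek-1 mutants both genes had lower means on RNAi. Without the pmt-2 mutant, r with lbp-3 was 0.915 for col-122, 0.889 for col-19 and 0.967 for col-140 over 9 group means, and 0.81, 0.80 and 0.84 over the 27 single arrays, which share their RNA and normalisation. With col-19 this low, the young adult stage that the labels give for the pmt-2 mutant cannot be taken as matched to wild type. The part of the animals' stage in the lbp-3 result was not tested.

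**Figure D3:**
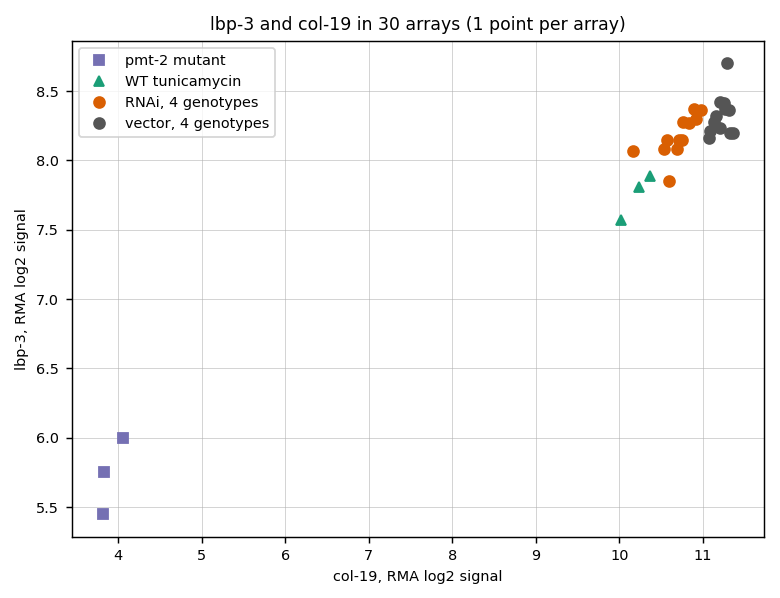
Signal of lbp-3 (vertical axis) against that of the adult collagen gene col-19 (horizontal axis), both RMA log2, with 1 point for each of 30 arrays. The 3 pmt-2 mutant arrays stand apart at the lower left (col-19 between 3.82 and 4.06), the 3 tunicamycin arrays lie at the lower edge of the other 27, and the vector arrays at their upper right.

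Other markers also set the pmt-2 mutant apart, and their part in each lbp change there was not tested. All 12 markers of oocytes and germ line were lower, with an array mean of 4.82 to 4.98 in the pmt-2 mutant against 10.76 to 10.86 in wild type on vector, and all 5 measured yolk protein genes fell, vit-5 by 9.89. The 10 neuronal markers were higher (9.31 to 9.35 against 6.88 to 7.04), and of 10 hypodermal markers 8 were higher and 2 lower (8.01 to 8.02 against 5.81 to 6.51). The hypodermal list includes col-19, the adult-stage marker above, so it does not measure hypodermal tissue apart from stage. Of 11 intestinal markers 6 were higher and 3 lower (7.78 to 7.88 against 7.43 to 7.69), and of 10 muscle markers 5 were higher and 2 lower (8.50 to 8.56 against 7.80 to 8.18). Of 8 measured sperm markers 5 were lower (2.95 to 3.0 against 4.31 to 4.68). In whole worms, fewer cells of a type and less RNA per cell cannot be told apart. Centring each array on its median moved the median change of all probe sets in the pmt-2 mutant to -0.26. The 6 called lbp changes there kept their direction, while that of lbp-6, which was not called, turned to -0.095.

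With RNAi in wild type the same lists moved less. The germ line markers lay at 9.94 to 10.63 against 10.76 to 10.86 on vector (9 of 12 lower), the hypodermal ones at 6.81 to 8.23 against 5.81 to 6.51 (9 of 10 higher, 1 lower) and the neuronal ones at 7.55 to 7.91 against 6.88 to 7.04 (9 of 10 higher). Muscle markers lay at 8.09 to 8.48 against 7.80 to 8.18 (4 of 10 higher), sperm markers at 4.81 to 5.37 against 4.31 to 4.68 (4 of 8 higher), and intestinal markers at 7.32 to 7.74 against 7.43 to 7.69 (2 of 11 higher, 4 lower). Under tunicamycin, 8 of 11 intestinal markers were lower and 2 higher (6.51 to 6.58 against 7.43 to 7.69), 7 of 10 muscle markers were lower and 1 higher (7.28 to 7.43 against 7.80 to 8.18), 3 of 10 hypodermal ones were higher and 2 lower (6.36 to 6.89 against 5.81 to 6.51), and 1 of 12 germ line markers was lower (10.60 to 10.76 against 10.76 to 10.86). Neuronal markers lay at 6.81 to 6.88 with tunicamycin (1 higher, 2 lower) and sperm markers at 3.59 to 4.05 (3 lower). The part of these shifts in the lbp changes was not tested.

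lbp-5, a fatty acid-binding partner of NHR-49, was the flattest member and rose with RNAi in wild type. It read 7.33, 7.24 and 6.95 on RNAi against 6.58, 6.83 and 6.48 on vector, a rise of 0.54 without overlap (SE 0.141, limma adjusted p = 0.00393). With tunicamycin it read 6.95, 7.09 and 7.06, all above the vector, and the change of 0.40 missed the threshold (95% interval 0.11 to 0.69, adjusted p = 0.0534). That change passed the threshold in 4 of 13 alternatives. In the pmt-2 mutant lbp-5 read 6.58, 7.23 and 6.96, overlapping the vector, with a change of 0.29 (95% interval 0.00 to 0.59, adjusted p = 0.0776) that was 0.46 without array 1 of that mutant (adjusted p = 0.00667). The change in the pmt-2 mutant passed the threshold in 5 of 13 alternatives.

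In the sensor mutants RNAi gave no called change of lbp-5, at -0.04, 0.20 and 0.29 in the atf-6, ire-1 and pek-1 mutants (adjusted p = 0.877, 0.32 and 0.102). The response in the atf-6 mutant minus that in wild type was -0.58 (95% interval -0.99 to -0.17), which missed the threshold over all probe sets (adjusted p = 0.574). For the 9 lbp genes, 0 were called in that difference of responses by limma, where 0.0282% of all probe sets were called and 1950 had an unadjusted p under 0.05. All 10 groups of lbp-5 overlap with their neighbour in the order of levels, from wild type on RNAi at the top (7.17 ± 0.20) to wild type on vector at the bottom (6.63 ± 0.18).

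lbp-8, the carrier of a lysosomal lipid signal to the nucleus, gave signals near the floor of the arrays. Its 30 values lay between 1.45 and 2.98, at the 1.7 to 35.7 percentile of their array, and it was the 1 member whose group means never reached 5. In the pek-1 mutant it read 1.79, 1.87 and 1.96 on RNAi against 2.98, 2.67 and 2.25 on vector, a fall of 0.76 without overlap (SE 0.157, adjusted p = 0.000299). The pek-1 mutant on vector had the highest group mean of the 10, 2.63 ± 0.37 against 2.06 ± 0.29 in wild type on vector, with overlapping arrays and a difference of 0.57 that missed the threshold (adjusted p = 0.235). Without vector array 3 of the pek-1 mutant that difference was 0.76 (adjusted p = 0.0486).

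No other change of lbp-8 between 2 groups was called, and of its differences of response that between the ire-1 and the pek-1 mutant was called, at 0.88 (adjusted p = 0.0114). It read 1.70, 1.72 and 1.76 in the pmt-2 mutant, 1.67, 1.65 and 1.85 in wild type on RNAi and 1.94, 1.85 and 1.98 with tunicamycin, against 2.38, 2.01 and 1.80 in wild type on vector. The changes were -0.34, -0.34 and -0.14 (adjusted p = 0.0685, 0.103 and 0.642). Without vector array 3 of wild type the first 2 were -0.47 and -0.47 (adjusted p = 0.0218 and 0.0395). All neighbouring groups overlap in the order of its levels, which ends with the ire-1 mutant on vector (1.67 ± 0.19).

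lbp-4, which is known only as a family member, fell in the pmt-2 mutant and with RNAi in every genotype, and was not called with tunicamycin. It read 4.56, 5.15 and 4.93 in the pmt-2 mutant, 6.18, 5.44 and 5.85 in wild type on RNAi and 6.70, 6.92 and 6.51 with tunicamycin, against 6.51, 6.54 and 6.64 in wild type on vector. The first 2 conditions lie wholly below the vector and tunicamycin overlaps it. The fall was 1.69 in the pmt-2 mutant (SE 0.15, 3.22-fold lower, adjusted p = 2.39e-10) and 0.74 with RNAi (1.67-fold lower, adjusted p = 0.000378), and the change with tunicamycin was 0.15 (95% interval -0.17 to 0.46, adjusted p = 0.609). The direct differences were called as well. lbp-4 stood 0.89 higher with tunicamycin than with RNAi (adjusted p = 4.01e-05), and the pmt-2 mutant differed from RNAi by -0.95 (adjusted p = 5.83e-06).

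Under RNAi lbp-4 read 5.69, 5.92 and 5.79 in the atf-6 mutant against 6.81, 6.56 and 6.58 on vector, a fall of 0.85 (adjusted p = 9.65e-05). In the pek-1 mutant it read 5.79, 5.82 and 5.91 on RNAi against 6.78, 6.52 and 6.67 on vector, a fall of 0.82 (adjusted p = 7.65e-05). In the ire-1 mutant it read 5.92, 5.90 and 5.85 on RNAi against 6.45, 6.29 and 6.33 on vector, again without overlap. That fall of 0.46 (adjusted p = 0.0227) was called in 9 of 13 alternatives, with an adjusted p between 0.0507 and 0.0781 without vector array 1 or 3 or RNAi array 1 or 3. The response in the ire-1 mutant minus that in wild type was 0.28 (95% interval -0.16 to 0.72, adjusted p = 0.585).

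The 10 groups of lbp-4 fell into an upper run of tunicamycin and the pek-1, atf-6 and wild-type vector groups, which overlap from one to the next, then the ire-1 vector group, a run of the 4 RNAi groups that overlap, and the pmt-2 mutant. Most like it were mrpl-51 (r = 0.993), usp-14 (0.993) and tbce-1 (0.992), and 0.985, 0.984 and 0.983 without the pmt-2 mutant. lbp-2 and lbp-4 were alike over the group means (r = 0.93, and 0.82 without the pmt-2 mutant), although they lie on different chromosomes.

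lbp-7 was the member with opposite changes under pmt-2 loss and tunicamycin. It read 5.74, 6.30 and 6.02 in the pmt-2 mutant, 5.55, 5.79 and 5.45 in wild type on RNAi and 3.70, 4.17 and 3.39 with tunicamycin, against 4.05, 4.82 and 4.61 in wild type on vector. The first 2 lie above the vector, and tunicamycin overlaps its lowest array. The rise was 1.53 in the pmt-2 mutant (SE 0.212, 2.88-fold, adjusted p = 6.25e-07) and 1.103 with RNAi (2.15-fold, adjusted p = 0.000214). The fall of 0.74 with tunicamycin (adjusted p = 0.0154) was called in 8 of 13 alternatives. Its adjusted p was between 0.0503 and 0.114 without vector array 2 or 3 of wild type or tunicamycin array 1 or 3, and 0.132 with the spread of these 6 arrays alone. Tunicamycin and RNAi differed by -1.84 (SE 0.212, adjusted p = 1.84e-07).

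RNAi raised lbp-7 in the ire-1 mutant (5.68, 5.65 and 5.73 against 4.62, 4.61 and 4.34 on vector, a rise of 1.16, adjusted p = 0.000279) and in the pek-1 mutant (5.54, 5.72 and 5.48 against 5.08, 4.45 and 4.18, a rise of 1.01, adjusted p = 0.000351). In the atf-6 mutant it read 5.14, 4.97 and 5.11 on RNAi against 4.40, 4.91 and 4.70 on vector, which do not overlap, and the change of 0.40 missed the threshold (95% interval -0.04 to 0.84, adjusted p = 0.163). The response in the atf-6 mutant minus that in wild type was -0.70 (95% interval -1.32 to -0.08), and it too missed the threshold (adjusted p = 0.663).

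In the order of its levels lbp-7 was highest in the pmt-2 mutant, followed by overlapping RNAi groups of the ire-1 mutant, wild type and the pek-1 mutant, then the atf-6 mutant on RNAi, the overlapping vector groups and tunicamycin. Most like it were F01D5.5 (r = 0.981), tni-4 (0.977) and Y57G11A.4 (0.975), and 0.98, 0.975 and 0.966 without the pmt-2 mutant. lbp-7 ran opposite to lbp-4 over the group means (r = -0.88, and -0.88 without the pmt-2 mutant). With lbp-8, 3 genes away, r was -0.42.

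lbp-6 was lower with tunicamycin and in the ire-1 mutant on vector than in wild type on vector. It read 5.94, 5.67 and 5.99 with tunicamycin against 6.81, 7.05 and 6.89 in wild type on vector, a fall of 1.05 without overlap (SE 0.125, 2.07-fold lower, limma adjusted p = 5.73e-07). In the pmt-2 mutant it read 6.67, 7.08 and 7.07 and in wild type on RNAi 7.09, 7.20 and 7.06. Those changes of 0.03 and 0.20 missed the threshold (adjusted p = 0.862 and 0.229). Tunicamycin and RNAi differed by -1.25 (adjusted p = 1.82e-08).

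In the ire-1 mutant lbp-6 read 6.44, 6.37 and 6.31 on vector, below every wild-type vector array. The difference was -0.54 (SE 0.125, adjusted p = 0.00816), and it was -0.47 (adjusted p = 0.0506) without vector array 2 of wild type. It was the 1 lbp gene called by limma between a sensor mutant and wild type on vector, where 6.16% of all probe sets were called for the ire-1 mutant, 0.194% for the atf-6 mutant and 0.113% for the pek-1 mutant. In the ire-1 mutant on vector 5 of 10 hypodermal markers were higher and 0 lower. Of 10 peroxisomal fatty acid oxidation genes 6 were lower, and of 5 yolk protein genes 3, with 0 higher in both lists. The part of these shifts in the lbp-6 difference was not tested. In the authors' deposited table for the ire-1 mutant, lbp-6 had an FDR p-value of 0.0907 and lbp-1 one of 0.0328, so that table calls lbp-1 and not lbp-6. For the atf-6 and pek-1 mutants 0 lbp genes were called by limma, and 2866 and 2404 probe sets had an unadjusted p under 0.05. RNAi raised lbp-6 in the ire-1 mutant to 7.0, 6.79 and 6.74, a rise of 0.47 over its vector arrays (adjusted p = 0.0067). The response there minus that in wild type was 0.26 (95% interval -0.10 to 0.63, adjusted p = 0.505).

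8 of the 10 groups of lbp-6 overlap from one to the next, and the ire-1 mutant on vector and the tunicamycin group stand apart below them. Most like it were hsp-70 (r = 0.98), cest-24 (0.943) and R07E3.4 (0.93), and 0.979, 0.945 and 0.928 without the pmt-2 mutant. With lbp-5, its neighbour on chromosome I, r was -0.01.

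lbp-9 was called in the pmt-2 mutant and in no other comparison with a vector group. It read 8.77, 8.98 and 8.95 there against 9.83, 10.10 and 9.94 in wild type on vector, a fall of 1.06 without overlap (SE 0.112, 2.08-fold lower, adjusted p = 6.42e-09). The mutant also differed from wild type on RNAi (10.13, 9.75 and 9.94) by -1.04 (adjusted p = 1.36e-08). With tunicamycin it read 10.04, 10.36 and 10.01, and the change of 0.18 missed the threshold (adjusted p = 0.338). Under RNAi its changes lay between -0.11 and 0.01 over the 4 genotypes, each of them not called, and the other 9 groups overlap from one to the next. Most like it were clec-223 (r = 0.994), ZK813.3 (0.988) and cht-3 (0.986), but without the pmt-2 mutant these were 0.94, 0.867 and 0.825. Its r of 0.90 with lbp-3 was -0.49 without the pmt-2 mutant.

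**Figure D4:**
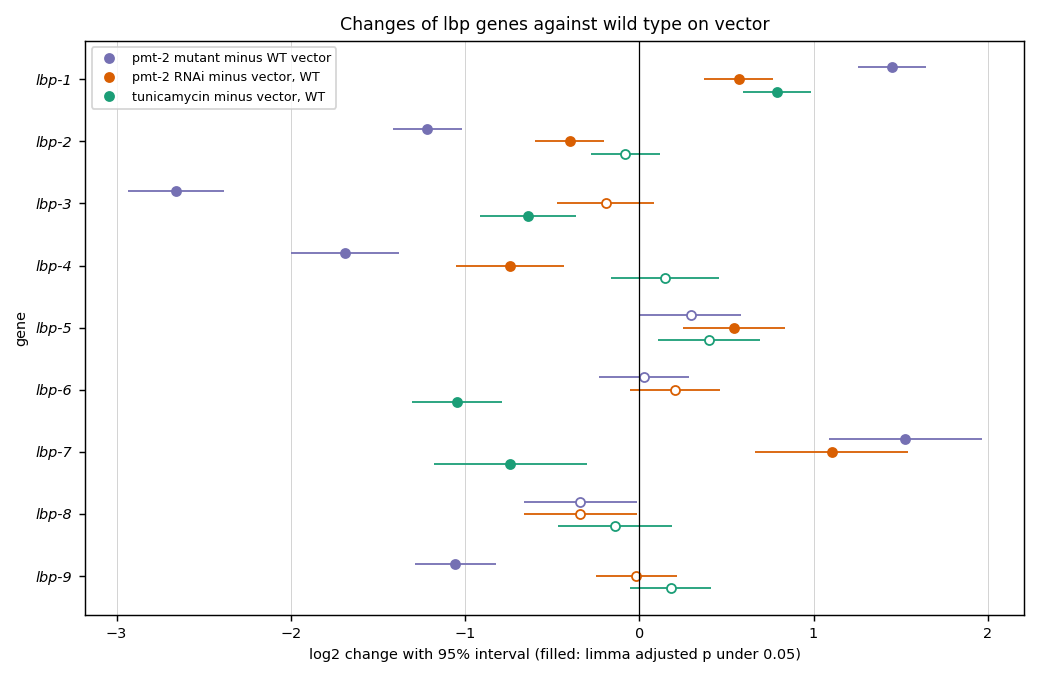
Change of each lbp gene (horizontal axis, log2 difference from wild type on vector, bars for the 95% interval) in the pmt-2 mutant, with pmt-2 RNAi and with tunicamycin, filled where limma's adjusted p is under 0.05. lbp-1 lies right of 0 in all 3, lbp-7 right of 0 with loss of pmt-2 and left of it with tunicamycin, and lbp-6 left of 0 at -1.05 with tunicamycin.

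Set side by side, tunicamycin and RNAi in wild type differed in 5 lbp genes, with lbp-2 and lbp-4 higher and lbp-3, lbp-6 and lbp-7 lower with tunicamycin, where 39.7% of all probe sets were called, 22.2% higher and 17.5% lower. The differences of lbp-2 (0.32, adjusted p = 0.00975) and lbp-3 (-0.44, adjusted p = 0.00981) had adjusted p = 0.127 and 0.0647 with the spread of these 6 arrays alone. That of lbp-3 also lost its call without array 2 of RNAi (adjusted p = 0.0674) or array 1 of tunicamycin (adjusted p = 0.0634), and that of lbp-2 without array 3 of tunicamycin (adjusted p = 0.0613). The pmt-2 mutant and RNAi differed in 5 lbp genes as well, with lbp-1 higher and lbp-2, lbp-3, lbp-4 and lbp-9 lower in the mutant, where 51.5% of all probe sets were called, 27.7% higher and 23.8% lower. For lbp-7 that difference was 0.42 (95% interval -0.01 to 0.86, adjusted p = 0.103).

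Over the genotypes, 3 lbp genes were called with RNAi in the atf-6 mutant (1 higher, 2 lower), where 29.9% of all probe sets were called, 13.8% higher and 16.1% lower. In the ire-1 mutant 4 were called (2 higher, 2 lower), beside 28.1% of all probe sets, 14.3% higher and 13.8% lower. In the pek-1 mutant 6 were called (2 higher, 4 lower), beside 43.9% of all probe sets, 18.7% higher and 25.2% lower. The median change of the 9 genes was -0.04, 0.11 and -0.11, against -0.09, -0.08 and -0.15 over all probe sets. For the difference between the pek-1 mutant and wild type in the RNAi response, 0 lbp genes were called by limma, where 1.24% of all probe sets were called and 3546 had an unadjusted p under 0.05. The hypodermal markers lay at 7.44 to 7.47, 8.24 to 8.54 and 8.30 to 8.39 on RNAi in the atf-6, ire-1 and pek-1 mutants against 5.95 to 6.05, 7.10 to 7.41 and 5.83 to 5.85 on vector, with 9, 8 and 9 of 10 called higher and 1, 0 and 1 lower. Muscle markers lay at 8.19 to 8.34, 8.64 to 8.77 and 8.31 to 8.38 on RNAi against 7.25 to 7.95, 7.93 to 8.20 and 7.57 to 8.06 on vector, with 7 of 10 higher in each mutant and 0, 1 and 1 lower. Neuronal markers lay at 7.49 to 7.70, 7.65 to 7.74 and 7.74 to 7.87 against 6.91 to 7.01, 7.16 to 7.22 and 6.88 to 7.02 (5, 7 and 8 of 10 higher, 0, 1 and 0 lower). Germ line markers lay at 10.40 to 10.58, 10.29 to 10.45 and 10.09 to 10.24 against 10.75 to 10.81, 10.73 to 10.83 and 10.84 to 10.85 (5, 6 and 10 of 12 lower, 1, 0 and 0 higher). Sperm markers lay at 4.77 to 5.07, 5.16 to 5.2 and 4.99 to 5.15 against 4.26 to 4.81, 4.02 to 4.49 and 4.21 to 4.36 (2, 5 and 5 of 8 higher). Intestinal markers lay at 7.31 to 7.45, 7.68 to 7.72 and 7.45 to 7.50 against 7.43 to 7.46, 7.43 to 7.55 and 7.40 to 7.49 (3, 4 and 4 of 11 higher, 3, 2 and 5 lower). The part of these shifts in the lbp changes was not tested.

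Other lipid carriers and the enzymes that make or burn fatty acids were measured on the same arrays. Of all probe sets, 59.2% were called in the pmt-2 mutant (28.4% higher, 30.8% lower) and 33.3% with RNAi in wild type (15.6% higher, 17.7% lower). With tunicamycin 16.6% were called (8.24% higher, 8.37% lower). The counts of this and the further lists stand beside these shares and were not tested against them. Of 8 fatty acid- and retinol-binding proteins, the other nematode family of small lipid carriers, 6 rose and 1 fell in the pmt-2 mutant, 4 rose and 0 fell with RNAi in wild type, and 1 rose and 2 fell with tunicamycin. far-3 rose by 4.76 and far-7 by 3.96 in the pmt-2 mutant, where far-2 fell by 4.61. With RNAi far-7 rose by 2.46, and with tunicamycin it rose by 1.51. Of 7 acyl-CoA-binding proteins, which hold fatty acids activated with coenzyme A, 2 rose and 4 fell in the pmt-2 mutant, 2 rose and 4 fell with RNAi, and 1 rose and 1 fell with tunicamycin. acbp-5 fell by 1.94 in the pmt-2 mutant, and maa-1 rose in all 3, by 1.80, 0.87 and 0.94.

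The lipid-sensing nuclear receptors and their coactivators gave 5 rises and 2 falls among 7 genes in the pmt-2 mutant, 5 and 1 with RNAi, and 1 and 0 with tunicamycin. nhr-49, the receptor that LBP-5 and LBP-8 act with, rose by 1.24 with RNAi (adjusted p = 7.17e-12), and nhr-80, a receptor that regulates fatty acid desaturation, by 1.09. sbp-1, which encodes the sterol regulatory element-binding protein, rose by 2.01 and its coactivator gene mdt-15 by 1.52 in the pmt-2 mutant. nhr-69, another receptor gene of the list, rose by 1.96 in the pmt-2 mutant, by 1.03 with RNAi and by 0.44 with tunicamycin. Of 8 lysosomal acid lipases, 2 rose and 1 fell in the pmt-2 mutant, 2 rose and 1 fell with RNAi, and 3 rose and 1 fell with tunicamycin. lipl-4, the lipase placed upstream of LBP-8 and LBP-3, rose by 0.72 with tunicamycin (adjusted p = 0.0249), and lipl-2 by 1.72. lipl-1 fell by 2.08 in the pmt-2 mutant and by 1.89 with RNAi. lipl-6 rose by 2.09 in the pmt-2 mutant, and lipl-3 rose by 1.62 with RNAi and by 1.58 with tunicamycin.

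The delta-9 desaturases, which make monounsaturated fatty acids, changed in opposite directions. All 3 rose in the pmt-2 mutant and with RNAi in every genotype, and all 3 fell with tunicamycin. fat-5 rose by 3.21 in the pmt-2 mutant and by 3.83 with RNAi, and changed by -0.79 with tunicamycin. fat-7 changed by 2.29 in the pmt-2 mutant, by 3.69 with RNAi and by -2.02 with tunicamycin. Of 10 genes of mitochondrial fatty acid import and oxidation, 5 rose and 4 fell in the pmt-2 mutant, 5 rose and 3 fell with RNAi, and 4 rose and 3 fell with tunicamycin. acs-2, an acyl-CoA synthetase gene, rose by 2.77 in the pmt-2 mutant and by 3.36 with RNAi, and cpt-3, a carnitine palmitoyltransferase gene, rose by 1.81 with tunicamycin. Of 10 peroxisomal genes, 4 rose and 4 fell in the pmt-2 mutant, 2 rose and 4 fell with RNAi, and 4 rose and 4 fell with tunicamycin, and the acyl-CoA oxidase gene acox-1.2 changed by -2.60, -2.36 and -2.36. acox-1.3 changed by -3.34 in the pmt-2 mutant and by -2.63 with RNAi. Of 7 genes of triglyceride breakdown and lipid droplets, 3 rose and 1 fell in the pmt-2 mutant, 3 rose and 1 fell with RNAi, and 2 rose and 1 fell with tunicamycin. The triglyceride lipase gene atgl-1 rose by 1.16 with RNAi, while lid-1 fell by 1.42 in the pmt-2 mutant and fil-1 rose by 1.11 with tunicamycin.

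Among the yolk protein genes, whose products carry lipid to oocytes, 0 of 5 rose and 3 fell with RNAi in wild type, and 0 rose and 2 fell with tunicamycin. vit-1 changed by -4.66 with RNAi and by -1.99 with tunicamycin.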

How the data were processed

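Per the submitters' processing notes the arrays were normalised with RMA, for which no version is given, and the authors deposited the resulting log2 signals of 30 arrays for 29317 probe sets. Per the file headers, 12 further tables compare groups over 28387 probe sets, and the authors deposited in them biweight means on the log2 scale and an SD per group (a score that is never negative), a signed linear fold, a p-value and an FDR p-value. The SDs of the array values lay within 0.0051 of those of the tables for 100% of probe sets. In the tunicamycin table the sign of the fold is opposite to the difference of the means for 27966 probe sets and the same for 0, and its 28387 p-values carry a minus sign while its FDR column does not, so directions were taken from the signals. A single gene is named for 25936 probe sets, several for 645 and no gene for 1806. By locus tag, 25567 were found in the RefSeq gene table (WBcel235), through which 2536 symbols were updated.

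Changes were fitted with limma 3.58.1 in R 4.3.3 (lmFit and eBayes, 1 mean per group, all 30 arrays, 20 residual degrees of freedom), with Benjamini-Hochberg adjustment over 28387 probe sets and a threshold of 0.05. The method was tested on simulated data with known changes in few probe sets and the same spread in every group. Comparisons in which a large share of probe sets change were not simulated. Ranges of arrays were called overlapping where they share any value. Likeness is Pearson's r over 10 group means among genes whose highest mean is at least 6 and whose SD over groups is at least 0.5, for members spanning at least 1. For each member, 5042 or 5043 genes were searched. The genes named were picked by r over all 10 means. Their r without the pmt-2 mutant reuses 9 of these means, so it is not an independent check. The members, lists, comparisons and alternatives were chosen with earlier results of these data known. The genes named from each further list are among the 3 with the largest change past the threshold in at least 1 comparison. Not all of these are named, and which are was chosen with their values known. Same-numbered arrays of different groups did not deviate together on average (mean r 0.006 over 135 pairs), so numbers were not taken to pair arrays. Between RNAi and vector in wild type, same-numbered arrays gave r from 0.01 to 0.27, with 2 pairs over 0.1. No batch is given in the labels. 3 arrays per group limit the precision. The alternatives tried were other normalisations, a filter on dim probe sets, the spread of each comparison's own arrays, an intensity trend, the replicate number as a block, the authors' means and FDR column, and leaving out each array. No sequence is printed.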

Additional observations from a re-analysis of the deposited data

Results flagged for a closer look

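The pmt-2 RNAi response of lbp-1, which encodes a secreted fatty acid-binding protein, differed between genotypes by a test of the difference itself. The response in the ire-1 mutant minus that in wild type was -0.61 (limma adjusted p = 0.00526), and it was called in all 19 alternatives with an adjusted p between 0.000947 and 0.0388. Against the atf-6 mutant the difference was -0.825 (adjusted p = 0.000258) and against the pek-1 mutant -0.677 (adjusted p = 0.00155), 2 comparisons added after the data were seen. lbp-1 averaged 6.75 ± 0.13 on RNAi and 6.79 ± 0.02 on vector in the ire-1 mutant, and 7.12 ± 0.10 on RNAi and 6.55 ± 0.01 on vector in wild type (SD, n = 3 each). The fall of pmt-2 under RNAi was smaller in the ire-1 mutant than in wild type, by 1.33 on the log2 scale. pmt-2 averaged 9.65 ± 0.05 on vector and 7.47 ± 0.11 on RNAi in the ire-1 mutant, against 10.14 ± 0.07 and 6.63 ± 0.17 in wild type. On vector the ire-1 mutant also differed from wild type in markers, with 5 of 10 hypodermal ones higher and 0 lower. There 6.16% of all probe sets were called. The part of these differences in this result was not tested.

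The response of lbp-8 in the ire-1 mutant minus that in the pek-1 mutant was 0.882 (limma adjusted p = 0.0114), also added after the data were seen. It rests on signals near the floor of the arrays, at 1.79 ± 0.07 on RNAi and 1.67 ± 0.19 on vector in the ire-1 mutant, and 1.87 ± 0.08 on RNAi and 2.63 ± 0.37 on vector in the pek-1 mutant.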

How the results depend on the processing

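Of 126 changes of lbp genes over 14 comparisons, 40 were called, and 30 of these were called under every alternative fitted, the authors' FDR column aside. 10 lost their call under at least 1, 8 of the 86 others passed the threshold under at least 1. Of the called changes 0 turned direction, and of the others 26 had the opposite sign under at least 1 alternative. Over all probe sets, the share called ran from 0.0282% to 59.2% between the 14 comparisons, and the pooled count of lbp calls was not tested against it. With the spread taken from each comparison's own arrays, tunicamycin gave 2 called lbp genes in place of 4 and tunicamycin against RNAi 3 in place of 5, and over all probe sets 2970 in place of 4715 and 7488 in place of 11279 were called. RNAi in wild type then gave 5634 in place of 9467, the ire-1 mutant on vector 834 in place of 1748, and the atf-6 and pek-1 mutants on vector 5 and 5 in place of 55 and 32. The differences of response from wild type gave 0, 1096 and 36 in place of 8, 1775 and 353 for the atf-6, ire-1 and pek-1 mutants. For comparisons of 2 groups this alternative has 4 residual degrees of freedom in place of 20, and more for the differences of response, which use 4 groups. By the FDR column of the authors' deposited tables, RNAi in wild type gave 2 lbp genes in place of 5, tunicamycin 2 in place of 4 and RNAi in the pek-1 mutant 3 in place of 6. The calls it lacks are lbp-4, lbp-5 and lbp-7 for RNAi in wild type, lbp-3 and lbp-7 for tunicamycin, lbp-3, lbp-7 and lbp-8 for RNAi in the pek-1 mutant and lbp-2 for RNAi in the atf-6 mutant, and for the ire-1 mutant on vector it calls lbp-1 in place of lbp-6. Over all probe sets that column gave 2860 for RNAi in wild type, 1710 for tunicamycin, 5323 in place of 8478 for RNAi in the atf-6 mutant, and 6, 299 and 0 for the atf-6, ire-1 and pek-1 mutants on vector. For RNAi in the pek-1 mutant it gave 9454 in place of 12460. The deposited biweight means gave 217 and 95 for the atf-6 and pek-1 mutants on vector, and 13 and 844 for the responses of these mutants. An intensity trend gave 94 for the atf-6 mutant on vector, and the filter on dim probe sets 544 for the response of the pek-1 mutant. Centring each array on its median moved the share of calls that were higher to 31.5% in place of 48.3% for the ire-1 mutant on vector, 22.9% in place of 41.8% for the atf-6 mutant on vector, 50% in place of 62.5% for the pek-1 mutant on vector, and 61.9% in place of 49.9% for the response of the ire-1 mutant. The cause was not tested. Leaving out 1 array at a time gave 0 to 1 called lbp genes for the ire-1 mutant on vector (0 without wild-type vector array 2), 0 to 1 for the pek-1 mutant on vector (1 without its vector array 3) and 2 to 4 for RNAi in the ire-1 mutant (2 without its RNAi array 1). With the replicate number as a block (replicate block), 2 lbp genes in place of 3 were called for RNAi in the atf-6 mutant, lbp-2 having an adjusted p of 0.0611, and the other 13 comparisons kept their count. Array weights could not be fitted, since the estimate did not converge. With 3 arrays per group the precision is limited, and lbp-8 lies near the floor of the signal.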
